A study of Rattus norvegicus with 24 samples.

Results

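The comparison described here set rats exposed to 3 loud noises against rats exposed to 1, in RNA from the rostral posterior hypothalamus (rPH). Of the 24 rats in the series, 10 entered it: 5 of the 6 in the group given 3 exposures (RS3, rats 7, 9, 10, 11 and 12) and 5 of the 6 in the group given 1 exposure (AS, acute stress, rats 13 to 17). RS3 rat 8 and AS rat 18 were left out because the published analysis excluded them for library quality. All were young adult male Sprague-Dawley rats of 1 supplier that were handled and placed daily in sound-attenuating chambers for 7 days. The AS rats received 30 min of loud noise on the last day alone, and the RS3 rats received it on each of the last 3 days. Every rat was killed 24 h after its last exposure, so both groups had their last noise at the same interval before death and differed in the number of exposures before it. A no-noise control group (C) and a group given 7 exposures (RS7), each with 5 rats retained, are used below only where a value of theirs bears on a gene. The tissue was a block dissected around the rPH, in which many cell types and neighboring nuclei contribute RNA, so that fewer cells of a type and less RNA per cell cannot be told apart in any result.

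The posterior hypothalamus lies behind the neuroendocrine nuclei of the hypothalamus and below the thalamus, and its neurons project to autonomic and neuroendocrine regions. The hypothalamo-pituitary-adrenal response to a noise of moderate intensity declines when the same noise is repeated, a form of learning called stress habituation, in which the rPH has been implicated. Genes of interest for such plasticity are those that set neuronal excitability (ion channels), inhibitory and excitatory transmission (GABA and glutamate genes), calcium and kinase signaling, and activity-dependent genes.

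The 10 libraries held 9209841 to 16947298 gene counts each. The total did not separate the groups (median 11858909 in AS and 12188012 in RS3, two-sided exact permutation test, p = 0.468, n = 5 per group), nor did the share of reads in the 10 most abundant genes (p = 0.913, same exact test). Of 32883 genes in the table, 16202 passed a filter on low counts and were tested. Levels are given as CPM, which are counts scaled to a common library size with TMM factors, and log2 fold changes are RS3 minus AS. Gene symbols were at hand for 754 of the tested genes, all of them from lists the study drew up from these same rats, mostly for the comparisons that involve RS7. The table's other genes are known by identifier only.

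No gene passed the threshold of an adjusted p of 0.05 between 3 and 1 exposures. The edgeR quasi-likelihood test called 0 of 16202 genes (percent called 0), and after Benjamini-Hochberg adjustment the lowest p was 0.403. Before adjustment 747 genes (4.61%) fell under a p of 0.05, where 5% would be expected with no difference at all. Without RS3 rat 9 the count was 455. The 747 were split evenly, with 383 genes (2.36%) higher and 364 (2.25%) lower in RS3. The DESeq2 Wald test called 1 gene, Kcnh5 (0.00391% of 25606 genes with an adjusted p), and 3 genes, Kcnh5, Zfp871 and Ubash3b, under its default filtering (0.0164% of 18269), and before adjustment 743 fell under 0.05. Limma-voom called 0 (lowest adjusted p 0.0677), and before adjustment 1316 fell under 0.05. Every gene difference below is therefore a value that did not pass the edgeR test, and the words higher and lower describe means.

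The size of difference that these rats could show was bounded for most genes. The log2 fold changes of all tested genes had a median standard error of 0.0929, and their central range, from the 5th to the 95th percentile, was -0.24 to 0.23. For 15690 genes (96.8%) the 95% interval of the log2 fold change lay within a 2-fold difference in either direction, and for 13747 (84.8%) it lay within 1.5-fold. The 512 genes whose interval reached beyond 2-fold had a median of 1.02 CPM against 19.6 CPM for the rest, although Oxt, Trh and Avp, described below, are among them at higher levels. In 144 genes (0.889%) the AS and RS3 rats did not overlap, 62 (0.383%) with every RS3 rat above every AS rat and 82 (0.506%) with every RS3 rat below. With no difference, groups of 5 rats each separate fully, in either direction, with an exact permutation probability of 0.00794 per gene. The share of 0.889% was close to that chance level. A lack of overlap in a gene named below is therefore description and not evidence of a difference. The count of such genes was 24 with all 24 rats of the series and 361 without RS3 rat 7. Group sizes, and with them the chance level, differ in those counts.

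**Figure D1:**
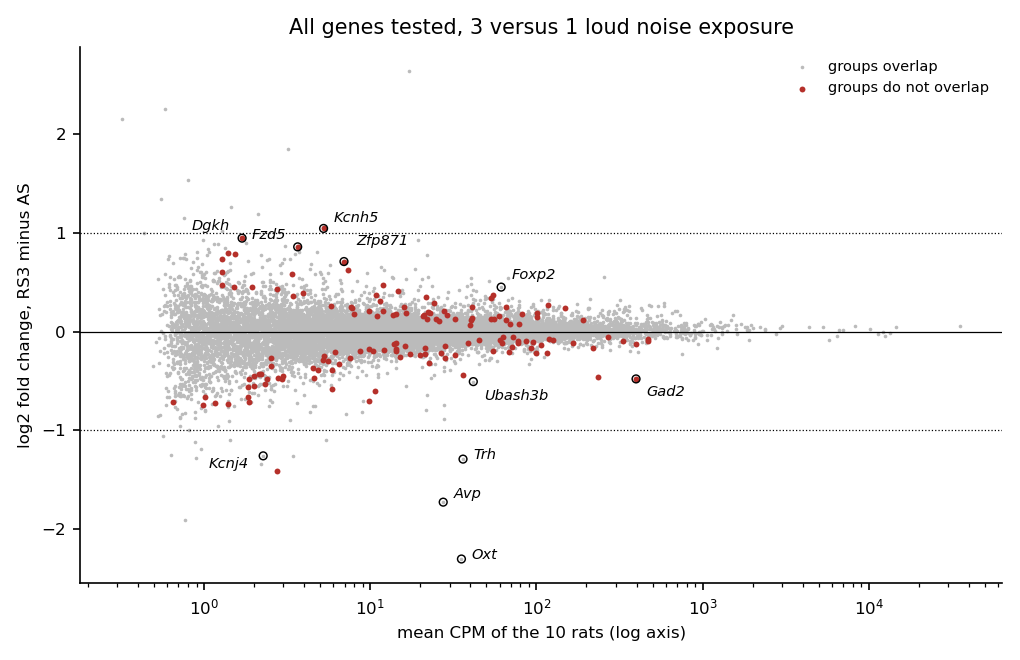
Log2 fold change (RS3 minus AS) of each of the 16202 tested genes against its mean CPM over the 10 rats, on a log axis. Red points are the 144 genes whose groups did not overlap, dotted lines mark a 2-fold difference, and circled genes are named. Most of the genes lie close to 0, and the widest scatter is at low CPM, with Oxt, Avp and Trh far below 0 at moderate CPM although their groups overlap.

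Whole profiles were closely alike in all 10 rats. Correlations of log2 CPM across genes, which are not independent replicates, were 0.991 to 0.994 between AS rats, 0.987 to 0.995 between RS3 rats and 0.988 to 0.995 between rats of different groups. The first principal component (21.2% of the variance) put AS rats 16 and 17 with RS3 rats 7 and 11 at one end and AS rats 13 and 15 with RS3 rats 9, 10 and 12 at the other. On the second component (19.2%) the groups overlapped, with AS rats at scores of -9.99 to 7.93. RS3 rats spanned -18.0 (rat 11) to 22.2 (rat 7) there. The third component (15.5%) had the AS rats at scores of 1.07 to 14.2 and the RS3 rats at -15.4 to 1.01, so that the groups met on it without overlapping. Gene by gene, the spread within the groups was alike, with a median SD of 0.122 on the log2 scale in AS and 0.126 in RS3.

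The gene with the lowest p was Kcnh5 (ENSRNOG00000009542), which encodes a voltage-gated potassium channel of the ether-a-go-go family. Its level was 4.87, 3.26, 3.21, 2.52 and 3.36 CPM in AS rats 13 to 17, and 5.51, 9.74, 6.65, 5.18 and 8.05 CPM in RS3 rats 7, 9, 10, 11 and 12. Every RS3 rat lay above every AS rat, by a narrow margin between AS rat 13 and RS3 rat 11. The mean was higher, from 3.44 ± 0.867 to 7.03 ± 1.89 CPM (SD, n = 5 each), a log2 fold change of 1.04 (SE 0.198, 95% interval 0.63 to 1.45) that missed the edgeR threshold (adjusted p = 0.403) and passed that of DESeq2 (adjusted p = 0.0091). Over all alternatives its adjusted p ran from 0.00649 to 1.00, the log2 fold change staying between 0.88 and 1.21 when any 1 rat was left out. The AS mean was the lowest of the 4 groups for Kcnh5: the mean was 5.17 CPM in C and 10.9 CPM in RS7, so that RS3 stood 0.46 above C on the log2 scale (edgeR unadjusted p = 0.0243 in the model of all genes) and AS stood 0.58 below it (log2 fold change -0.58, unadjusted p = 0.011).

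Zfp871 (ENSRNOG00000004947), a zinc finger gene, had 6.69, 5.30, 5.37, 4.17 and 4.83 CPM in AS rats 13 to 17 and 9.08, 9.20, 8.90, 6.97 and 8.94 CPM in the 5 RS3 rats. Again no RS3 rat reached down to the AS rats, and 4 of the 5 RS3 rats lay close together. The log2 fold change was 0.71 (SE 0.149, edgeR adjusted p = 0.457, and 0.0444 to 1.00 over the alternatives). Its C mean, 5.49 CPM, was near that of AS, and its RS7 mean was 10.4 CPM.

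Ubash3b (ENSRNOG00000008187), which encodes a protein tyrosine phosphatase of the UBASH3 family, had the lowest p among genes lower in RS3. AS rats 13 to 17 had 49.5, 50.8, 51.9, 38.6 and 53.7 CPM, and RS3 rats 7, 9, 10, 11 and 12 had 31.3, 30.9, 33.5, 37.1 and 39.3 CPM. The groups overlapped through 1 rat, AS rat 16, which lay below RS3 rat 12. The log2 fold change was -0.51 (SE 0.107, edgeR adjusted p = 0.457, and 0.0444 to 1.00 over the alternatives), with C at 40.5 CPM between AS and the RS7 mean of 32.7 CPM.

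Fzd5 (ENSRNOG00000014678), a Frizzled receptor for Wnt ligands, had 3.13, 1.71, 2.83, 2.44 and 2.95 CPM in the AS rats and 4.86, 5.05, 5.67, 3.82 and 4.11 CPM in the RS3 rats, in the same rat order. The groups did not overlap, and the means, 2.61 ± 0.562 and 4.70 ± 0.743 CPM, gave a log2 fold change of 0.86 (SE 0.190, edgeR adjusted p = 0.457). The RS3 level was close to that of RS7 (4.92 CPM), and AS was close to C (2.15 CPM). Foxp2 (ENSRNOG00000054508), a forkhead transcription factor, had 62.9, 46.3, 57.7, 49.6 and 43.1 CPM in the AS rats and 62.7, 77.7, 76.7, 66.3 and 70.2 CPM in the RS3 rats. RS3 rat 7 and AS rat 13 were alike for this gene, while the other 4 RS3 rats exceeded all AS rats, and the log2 fold change was 0.45 (SE 0.107, edgeR adjusted p = 0.496).

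**Figure D2:**
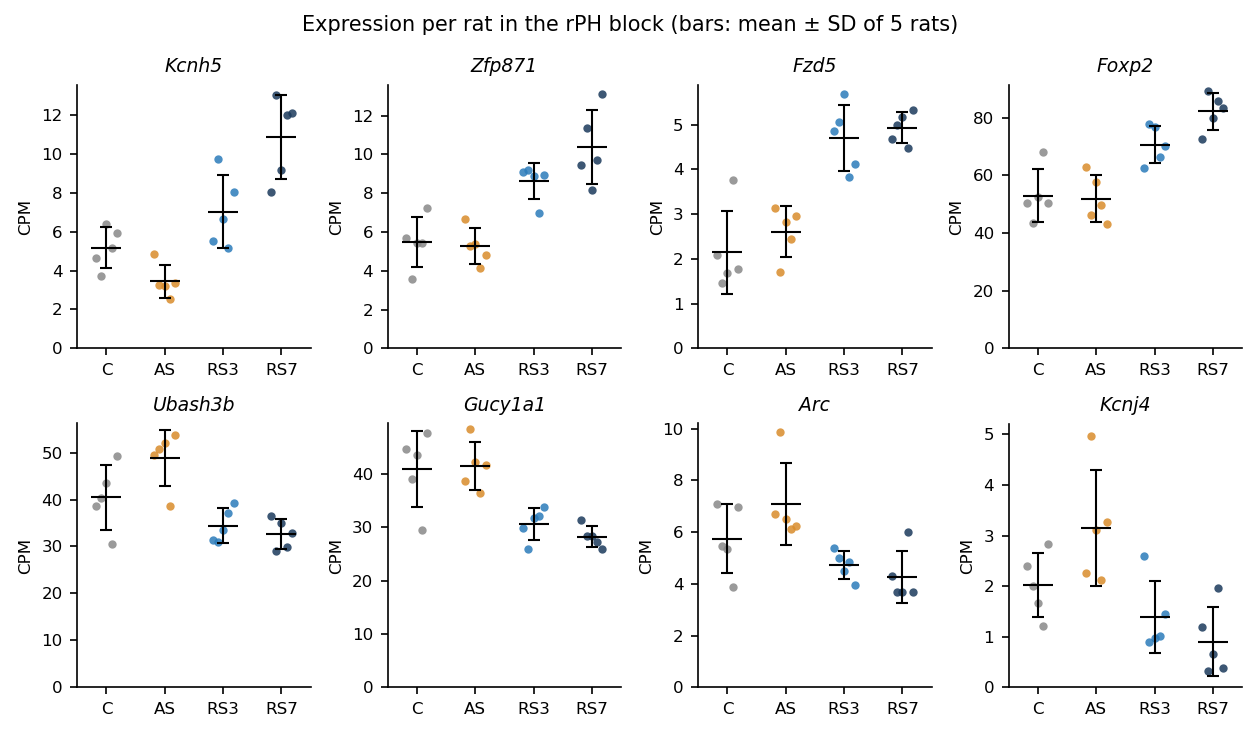
CPM of 8 genes in each rat of the C, AS, RS3 and RS7 groups (points, 5 rats per group), with the mean and SD as bars and each axis starting at 0. Kcnh5, Zfp871 and Fzd5 show no overlap between AS and RS3, with RS3 above, and Gucy1a1 and Arc show none with RS3 below, whereas Foxp2, Ubash3b and Kcnj4 overlap in at least 1 rat.

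Further genes with a symbol and a low p were higher in RS3. Ttbk2, a tau tubulin kinase, was 0.37 higher on the log2 scale (47.5 ± 2.65 CPM in AS, 61.4 ± 5.31 in RS3), and Prex2, an exchange factor for the GTPase Rac, was 0.27 higher (106 ± 4.49 and 128 ± 8.09 CPM). Mib1, a ubiquitin ligase for Notch ligands, was 0.25 higher, at 60.3 ± 1.67 and 71.4 ± 5.70 CPM. In all 3 genes no RS3 rat overlapped an AS rat. Epha8, an ephrin receptor, was 0.47 higher (9.98 ± 0.896 and 13.8 ± 1.53 CPM), also without overlap. Mdfic, named for a MyoD family inhibitor domain, was 0.62 higher (5.83 ± 0.573 and 8.82 ± 1.48 CPM), again without overlap.

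Orai1, the pore subunit of the store-operated calcium channel, had a log2 fold change of 0.52, with 1 RS3 rat (rat 11, 6.03 CPM) below the highest AS rat (rat 13, 6.18 CPM). Scarcer genes were also among the largest differences. Dgkh, a diacylglycerol kinase, had 1.16 ± 0.433 CPM in AS and 2.22 ± 0.333 CPM in RS3, a log2 fold change of 0.94, and Rxfp2, a relaxin family peptide receptor, had 1.26 ± 0.331 and 2.30 ± 0.462 CPM (0.90). Each rested on few reads, as few as 7 in 1 rat for Dgkh and 10 for Rxfp2. The C means, 1.92 CPM for Dgkh and 2.13 CPM for Rxfp2, lay nearer to RS3 than to AS.

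Among genes lower in RS3, Gucy1a1 (ENSRNOG00000012302), a subunit of the nitric oxide receptor guanylyl cyclase, had 38.6, 48.4, 42.3, 36.4 and 41.7 CPM in the AS rats and 29.8, 25.9, 31.7, 32.1 and 33.8 CPM in the RS3 rats. The groups did not overlap, and the log2 fold change was -0.44 (SE 0.103, edgeR adjusted p = 0.473). Smaller differences with a low p were those of Pitpnm2, a phosphatidylinositol transfer protein (-0.21), Parp8, a member of the PARP family (-0.23), Slc35f1, a solute carrier (-0.22), and Myo16, an unconventional myosin (-0.32). Of these 4, Slc35f1 showed no overlap. Actn2, an alpha-actinin, Zbtb7c, a zinc finger factor, and Islr2, a membrane protein of growing axons, had log2 fold changes of -0.54, -0.48 and -0.60.

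Kcnj4, an inwardly rectifying potassium channel, had the lowest log2 fold change of the potassium channel genes at -1.26 (SE 0.359), and its AS rats ranged from 2.12 to 4.97 CPM and its RS3 rats from 0.891 to 2.59 CPM. Arc (ENSRNOG00000043465), an activity-regulated gene of synaptic plasticity and the only immediate-early gene of 12 listed that had a symbol, had 6.69, 9.87, 6.51, 6.13 and 6.22 CPM in AS and 5.40, 4.99, 4.51, 4.84 and 3.95 CPM in RS3. No RS3 rat reached the AS rats. The log2 fold change of Arc was -0.59 (SE 0.169, edgeR adjusted p = 0.789), and -0.43 in the leave-one-out fit nearest to 0. C lay between the groups with 5.75 CPM.

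Of the 144 genes whose groups did not overlap, 31 had a symbol, and the others are known by identifier only. The 2 largest differences each way among those others, at a mean CPM of at least 1, follow. ENSRNOG00000012703 had a log2 fold change of -1.41 (3.95 ± 1.21 CPM in AS, 1.52 ± 0.496 in RS3) and ENSRNOG00000052407 one of -0.74, while ENSRNOG00000017828 and ENSRNOG00000032778 were 0.80 and 0.78 higher. All 4 were below 5 CPM on average in both groups.

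Because the symbols came from the study's own lists, the 754 genes with one are not a neutral set: 230 of them (30.5%) had an unadjusted p under 0.05, 163 higher (21.6%) and 67 lower (8.89%), and their median log2 fold change was 0.08, against 0.00 over all genes tested. Counts of members of each list below are to be read against those shares. The study's largest list compared RS7 with the same AS rats, so a gene high or low in those rats could be listed and also differ here. For lists whose members mostly go one way, the shares are no neutral base, and the counts are description only.

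Genes of GABAergic neurons of the prethalamus and hypothalamus were lower in RS3 in all 8 listed members that had a symbol (of 10), with a median log2 fold change of -0.47 and 6 of the 8 at an unadjusted p under 0.05. Gad1, which makes GABA from glutamate, had 245, 327, 266, 217 and 297 CPM in AS rats 13 to 17 and 204, 159, 196, 213 and 211 CPM in RS3 rats 7, 9, 10, 11 and 12 (log2 fold change -0.46, SE 0.131). Gad2, the other GABA-synthesizing enzyme, had 418, 535, 466, 382 and 513 CPM against 300, 262, 363, 357 and 378 CPM (-0.48, SE 0.142). In both genes the groups did not overlap, and the edgeR adjusted p was 0.789 for Gad1 and 0.875 for Gad2.

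Slc32a1, which loads GABA into vesicles, was also lower (84.2 to 118 CPM in AS, 62.8 to 96.0 CPM in RS3, -0.33), and its groups overlapped. Dlx5, a homeobox gene of forebrain GABAergic precursors, had a log2 fold change of -0.69. The summed level of the 8 genes was 710 to 1020 CPM in AS and 506 to 701 CPM in RS3. The GABA-A receptor subunit Gabrb2 stood on the other side, higher in RS3 (95.2 ± 12.0 and 118 ± 19.7 CPM, 0.31). Of the 8 GABA synthesis and receptor genes with a symbol (of 13 listed), 3 were higher and 3 lower at an unadjusted p under 0.05. The higher ones were all receptor subunits and the lower ones were Gad1, Gad2 and Slc32a1, and the list median was 0.16.

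Markers of neighboring regions also differed in level between the groups. Neurosecretory peptides, made by magnocellular and parvocellular neurons of the hypothalamus, were lower in RS3 on average but varied widely. Oxt (oxytocin) had 42.6, 143, 48.8, 4.01 and 51.3 CPM in the AS rats and 36.5, 0.713, 10.6, 0.340 and 15.6 CPM in the RS3 rats, with a log2 fold change of -2.30 (SE 1.06). Trh (thyrotropin-releasing hormone) had 39.0, 84.5, 50.3, 18.0 and 62.2 CPM against 45.7, 7.07, 23.2, 7.73 and 23.7 CPM, with a log2 fold change of -1.29 (SE 0.574).

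Avp (vasopressin) ranged from 5.11 to 84.1 CPM in AS and from 0.170 to 55.9 CPM in RS3 (-1.72, SE 1.03), with RS3 rat 7 far above the other RS3 rats. AS rat 16 and RS3 rats 9 and 11 had the lowest levels of their groups for all 3 peptides. Sim1, a transcription factor of those neurons, had a log2 fold change of -0.44. The 4 markers summed to 37.8 to 325 CPM in AS and 13.1 to 145 CPM in RS3, and none of the listed markers with a symbol, hypothalamic or thalamic, was at 0 in any rat. Of the wider list of neuropeptides and hormones, 7 of 16 had a symbol, with 1 higher (Cck, cholecystokinin, 0.25), 6 lower and a median of -0.35.

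Dorsal thalamic markers were higher in RS3 in all 5 members with a symbol (of 7), with a median log2 fold change of 0.27. The nuclear receptors Rora and Rorb had differences of 0.65 (9.06 ± 2.43 and 14.2 ± 3.49 CPM) and 0.32 (21.2 ± 2.49 and 26.5 ± 3.05 CPM), while Tcf7l2 and Lef1, effectors of Wnt signaling that mark the thalamus, had differences of 0.23 and 0.27 with an unadjusted edgeR p of 0.0829 and 0.0861. Their sums overlapped, at 520 to 781 CPM in AS and 552 to 887 CPM in RS3. Slc17a6, the vesicular glutamate transporter abundant in thalamus and hypothalamus, was 610 ± 86.2 and 697 ± 77.3 CPM (0.19).

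**Figure D3:**
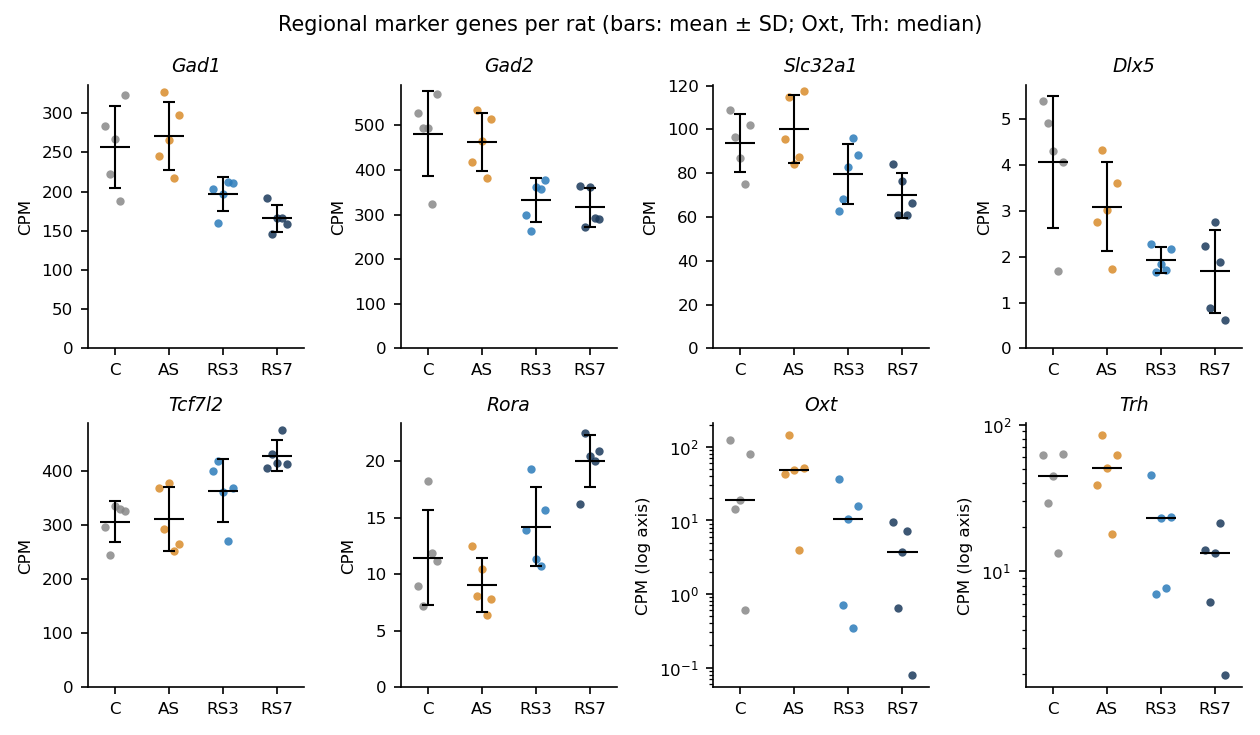
CPM of 8 regional marker genes in each rat of the 4 groups (points, 5 rats per group); bars are the mean and SD on axes that start at 0, and for Oxt and Trh, on log axes, the line is the median. Gad1 and Gad2 do not overlap between AS and RS3, the thalamic genes Tcf7l2 and Rora do, and Oxt ranges from 0.340 to 143 CPM over these 10 rats.

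Fits were also made with a regional marker level added to the edgeR model, a choice made after the data were seen. The markers themselves differ in mean between the groups. Such a fit therefore removes any difference that goes with them, whatever its source, and cannot measure their part in the gene differences. With the dorsal thalamic level in the model the log2 fold change was 0.62 for Kcnh5, 0.48 for Zfp871, 0.69 for Fzd5 and -0.49 for Ubash3b. Gad1 and Gad2 had -0.42 and -0.38 in that model, and Rora, itself one of the markers, had 0.17. With the neurosecretory level in the model Kcnh5 had 0.93, Gad1 had -0.22, Arc had -0.32, and Oxt and Avp, which are among its markers, turned to 0.27. The GABAergic list had a median of -0.40 with the thalamic level, with 7 of 8 members lower, and of -0.16 with the neurosecretory level, with all 8 lower. Both models called 0 genes, and 712 and 669 fell under 0.05 before adjustment.

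Fewer markers of other cell types had a symbol. Of the neuronal genes with a symbol (4 of 8 listed), all were higher in RS3 (3 at an unadjusted p under 0.05), among them Snap25, a vesicle fusion protein (0.17). Astrocyte genes gave 1 higher at an unadjusted p under 0.05, the glutamate transporter Slc1a2 (188 ± 15.8 and 223 ± 18.9 CPM, 0.24). The C mean of Slc1a2, 220 CPM, was near that of RS3. The water channel Aqp4 had -0.06 (SE 0.0744) and the transporter Slc1a3 -0.07 (SE 0.0439). Endothelial genes were split, with Plvap at 0.37 and Col4a1 at -0.18, and of the 2 ependymal genes Daw1 had -0.45. No listed marker of oligodendrocytes, microglia or blood had a symbol, so those cells were not assessed.

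Potassium channel genes were mostly higher in RS3, as were 505 (67.0%) of the genes with a symbol. Of 15 potassium channel genes, 13 were higher (median 0.19), 5 of them and 1 lower gene, Kcnj4, at an unadjusted p under 0.05. Of 12 sodium and calcium channel genes, 7 were higher and 5 lower, 4 and 1 of them at that level (median 0.13), the lower one being Trpc7, a receptor-operated cation channel (-0.52). Among 16 calcium and kinase signaling genes, 15 were higher (median 0.18), 9 of them at an unadjusted p under 0.05. Camk4, a calcium/calmodulin-dependent kinase, had 13.1 ± 2.16 CPM in AS and 17.0 ± 3.06 CPM in RS3 (0.39), with RS3 rat 9 above the rest.

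Receptors and ligands gave smaller counts. Of 7 glutamate genes with a symbol (of 13 listed), 3 were higher and 0 lower at an unadjusted p under 0.05 (median 0.19). Grin2a, an NMDA receptor subunit, had 16.7 ± 3.34 and 24.0 ± 5.65 CPM (0.53). Of 12 peptide and hormone receptor genes, 5 were higher and 7 lower (median -0.10), 3 and 1 of them at an unadjusted p under 0.05. Oprm1, the mu opioid receptor, had 9.64 ± 2.91 and 14.7 ± 4.31 CPM (0.62). Prlhr, the prolactin-releasing peptide receptor, had -1.34 with 1 RS3 rat apart from the others, and Crhr2, a corticotropin-releasing hormone receptor, had -0.31 with an interval from -0.84 to 0.21.

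Wnt signaling genes, of which Tcf7l2 and Lef1 are also thalamic markers, were higher in 15 of 17, with 5 higher and 1 lower (Dvl2, a Dishevelled adaptor, -0.21) at an unadjusted p under 0.05 and a median of 0.18. Of 20 axon guidance and adhesion genes, 14 were higher and 6 lower. At an unadjusted p under 0.05, 3 were higher, with the lowest p for Epha8, and 1 lower, the cadherin Cdh9 (-0.46). Vesicle release genes were higher in 13 of 15, transcription factors in 11 of 15 and heat shock genes in 6 of 7. At that unadjusted level, vesicle release genes gave 3 higher and 0 lower, and transcription factors 4 and 1. Heat shock genes gave 2 and 0, among them the cochaperone Dnajb14 (0.15). Of the glucocorticoid-responsive and hypothalamo-pituitary-adrenal genes with a symbol (6 of 16 listed), 4 were higher and 2 lower. At an unadjusted p under 0.05 there were 3 higher and 0 lower. The lowest p was that of Klf9, a Krüppel-like factor induced by glucocorticoids (82.8 ± 7.28 and 95.8 ± 7.98 CPM, 0.21).

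With the thalamic marker level in the model, medians lay nearer 0 for these lists of channel and signaling genes. The potassium channel, calcium and kinase, and Wnt lists then had medians of 0.04, 0.06 and 0.00, with 9 members higher in each. The medians of the glutamate, GABA synthesis and receptor, peptide receptor, axon guidance and transcription factor lists changed sign. With the neurosecretory level the potassium channel list kept a median of 0.19 and the calcium and kinase list one of 0.14.

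**Figure D4:**
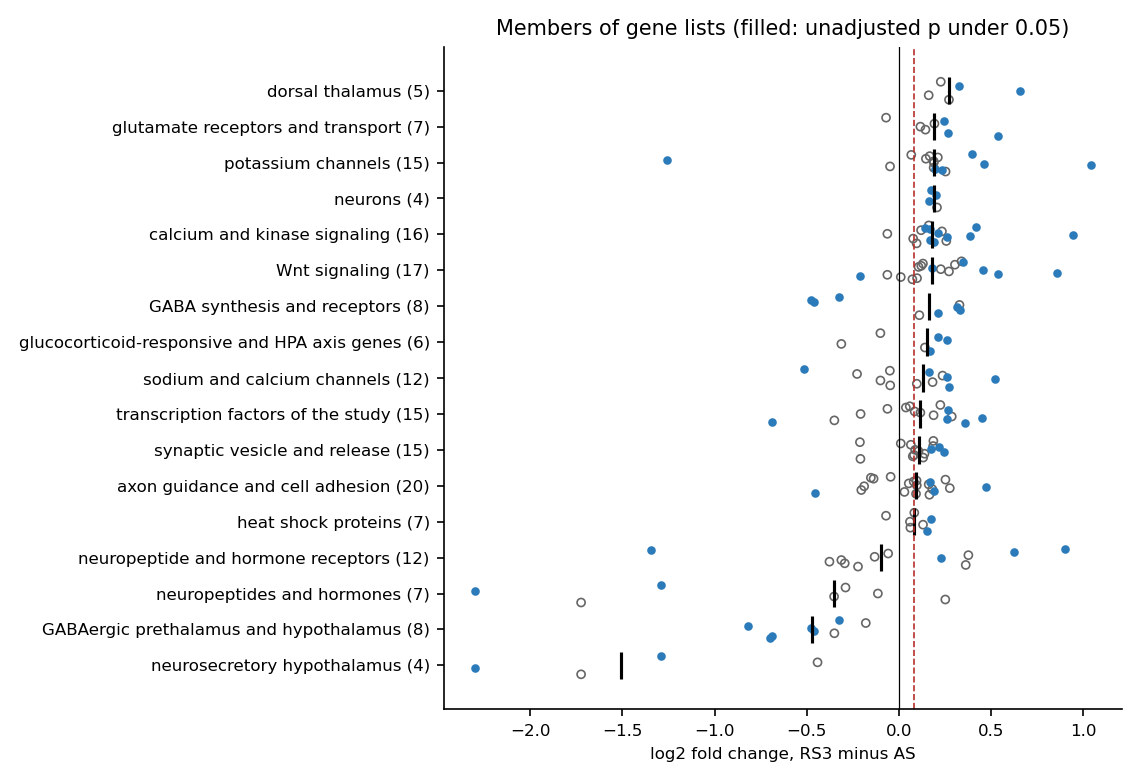
Log2 fold change (RS3 minus AS) of each member of 17 gene lists with at least 4 members tested (the number in parentheses); filled points had an unadjusted edgeR p under 0.05 and black ticks are list medians. The dashed line is the median of all 754 genes with a symbol, 0.08, and the GABAergic and neurosecretory lists lie below 0 with all their members.

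The 10 C and RS7 rats share no rat with this comparison and so give a separate set of values for the same genes. Of the 747 genes at an unadjusted p under 0.05, 652 (87.3%, exact Clopper-Pearson 95% interval 84.7 to 89.6 for counting alone, genes not being independent) had the same sign in RS7 minus C, against 64.5% of all tested genes. The share was 85.6% among genes higher in RS3 and 89.0% among those lower, and 82.0% among the 517 genes without a symbol. The median log2 fold change in RS7 minus C was 0.19 for the former and -0.19 for the latter, where RS3 minus AS gave 0.26 and -0.31. The regional markers differed in the same directions between C and RS7, Gad1 with a log2 fold change of -0.63 and Rora with 0.80 in RS7 minus C. In the models with a marker level the share of genes with the same sign was 88.9% (thalamic) and 91.2% (neurosecretory). Each of these models fits the same slope of the marker level over all retained rats, and the markers differ in the same directions in both comparisons. The comparisons are then no longer separate, and what the markers contribute to the shared signs was not tested.

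**Figure D5:**
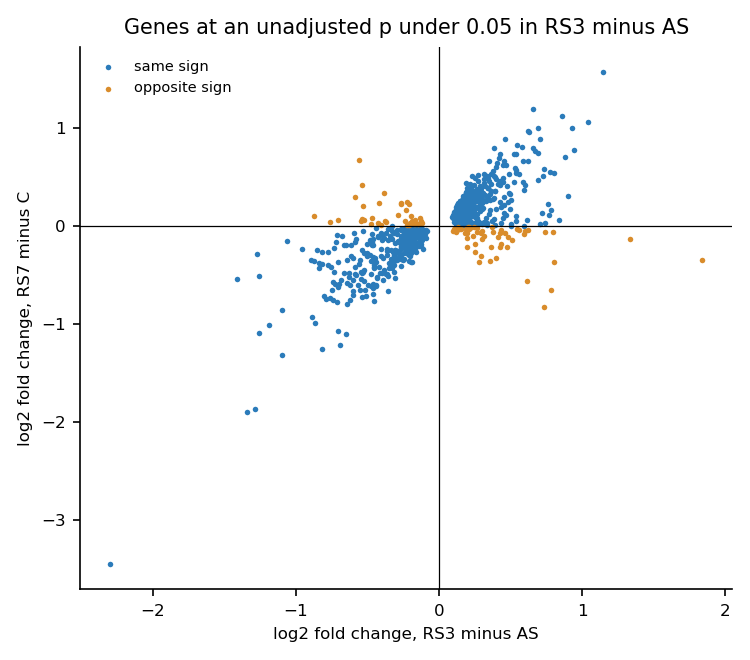
Log2 fold change in RS7 minus C against that in RS3 minus AS for the 747 genes at an unadjusted p under 0.05 in the latter. Blue points (652 genes) have the same sign in both and orange points do not, and no rat is in both comparisons.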

How the data were processed

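RNA from rPH tissue blocks of 24 rats was sequenced as paired reads from polyA-selected RNA. The authors trimmed the reads (Trimmomatic 0.36), mapped them to the rat genome rn6 (HISAT2 2.0.5) and deposited 1 table of unnormalized counts per Ensembl gene (Subread featureCounts), per the labels and the study's methods. Whether strand was used, and how multiply mapped reads were counted, is not given in the sources used here, so overlapping genes and near-identical copies could have exchanged reads. Of 32883 genes, 7066 had 0 counts in all rats. The study left out 1 rat per group without numbering it. The left-out rats (1, 8, 18 and 20) were found as the only set of 1296 that gave the mean counts printed for all 808 listed genes (the next best set gave 1). Symbols came from the same supplementary list, and its fold changes and p-values were not used.

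Genes were kept by filterByExpr (minimum count 10) and tested in R 4.3.3 with edgeR 4.0.16 (TMM, robust quasi-likelihood, 20 retained rats in 1 model of 4 groups, contrast RS3 minus AS) and Benjamini-Hochberg adjustment over all 16202 genes. Alternatives were DESeq2 1.42.0, limma-voom 3.58.1 with sample weights, DESeq2 size factors, no filter, all 24 rats, only the AS and RS3 groups, thinned libraries, each rat left out in turn and, chosen after seeing the data, a dorsal thalamic or a neurosecretory marker level as a covariate. At the lowest total, 1 CPM corresponds to 9.21 reads before TMM scaling. Each test was tested on simulated counts first. Rats are separate animals, which gives the p-values their biological spread.

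The gene lists, the members and the comparison were chosen with earlier results of these data known. Named genes are the 3 that the study lists for this contrast, the 10 lowest p with a symbol in each direction, the largest differences among genes whose groups do not overlap (mean CPM of at least 1; 5 each way with a symbol and 2 without), the list member with the lowest p in each direction, and a set of 21 stress, transmission and marker genes named whatever their values. Some genes that meet this rule are not reported here.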

Additional observations from a re-analysis of the deposited data

Results flagged for a closer look

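In 11 of 126 groups of 5 rats looked at for the named genes, 1 rat stood apart from the other 4 by Dixon's criterion (a gap over 0.71 of the range). Chance flags about 1 group in 20. RS3 rat 11 was low for Zfp871 (6.97 CPM, others 8.90 to 9.20), Slc1a2 (190 CPM, others 226 to 238) and Slc17a6 (562 CPM, others 712 to 759). RS3 rat 9 was high for Camk4 (22.3 CPM, others 14.7 to 16.3) and low for ENSRNOG00000012703 (0.653 CPM, others 1.59 to 1.87). RS3 rat 7 was high for Avp (55.9 CPM, others 0.170 to 6.77) and Prlhr (2.70 CPM, others 0.793 to 1.13). Among the AS rats, rat 16 was low for Ubash3b (38.6 CPM, others 49.5 to 53.7), rat 14 was high for Arc (9.87 CPM, others 6.13 to 6.69), rat 15 was high for Klf9 (95.8 CPM, others 78.5 to 80.7) and rat 13 was low for Aqp4 (813 CPM, others 923 to 960).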

How the results depend on the processing

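Over 30 alternatives, 20 of which leave out 1 rat, the count of differentially expressed genes was 0 except under DESeq2, with 1 gene (filtering at 0.05) and 3 genes (default). It was 0 whichever rat was left out. Genes at an unadjusted p under 0.05 numbered 1316 under limma-voom, 455 with all 24 rats, and 455 (without RS3 rat 9) to 925 (without AS rat 13) with 1 rat left out. Genes whose groups do not overlap numbered 24 with all 24 rats and 141 to 361 (without RS3 rat 7) with 1 rat left out, where a smaller group overlaps less easily. Genes with an interval within 2-fold numbered 15519 to 15741 with 1 rat left out. The share with the same sign in RS7 minus C was 77.9% with no filter, 82.7% in thinned libraries, 91.2% with the neurosecretory covariate, and 80% (without RS3 rat 9) to 90.4% (without RS3 rat 11) with 1 rat left out. The cause of these shifts was not tested. All 65 named genes kept their direction with any 1 rat left out.

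Of 1950 gene values under alternatives, 10 reversed. With all 24 rats Snap25 had -0.62, AS rat 18 holding 8381 CPM of it. With the thalamic covariate Slc17a6 had -0.0063, Tcf7l2 -0.071, Cck -0.073, Lef1 -0.098, Plk2 0.0012, Aqp4 0.037 and Hspb8 0.070. With the neurosecretory covariate Oxt and Avp had 0.27 each. List medians changed sign in 8 lists with the thalamic covariate, 3 with the neurosecretory covariate and 1 (neurons) with all 24 rats. No paired analysis was possible because the rats are numbered 1 to 24 without repetition and the groups share no replicate number. Depth limits the genes near 1 CPM, such as Dgkh and Rxfp2.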
